A study of Mus musculus with 12 samples.

Results

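Potassium channel genes were taken as the protein-coding genes of the mouse genome whose symbol begins with Kcn, is followed by letters and then by a digit, without the Kcnip genes and without Kcnq1. This gave 88 of 21887 protein-coding genes. Peaks of the remodeller INO80 and of the histone variant H2A.Z came from ChIP-seq, in which chromatin fragments bound by an antibody are sequenced. The cells were spermatogenic cells from testes of mice of mixed background, taken at postnatal day 18. INO80 was precipitated from wild-type cells. H2A.Z was precipitated from cells labelled Ino80WT and from cells labelled Ino80cKO, which lack Ino80 through a testis-specific deletion by Stra8-Cre, a recombinase expressed in premeiotic germ cells. The 12 libraries fell into 6 groups of 2, with a group of input libraries for each ChIP, and nothing in the labels ties the paired libraries to separate animals. The data analysed here are 3 lists of peak positions, 1 for each ChIP group, so no value has a replicate error and no test between samples was possible.

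The lists held 18139 INO80 peaks, 33827 wild-type H2A.Z peaks and 26199 knockout H2A.Z peaks, with median widths of 678, 460 and 422 bp. The narrowest peak in each list was 147 bp. Read depth was unknown. The knockout list is shorter and its peaks are narrower across the genome, so shares over all protein-coding genes are given for comparison. For INO80 at the roles described below, that share is 57.3%. The lists do not show the deletion itself. At Ino80, H2A.Z peaks were listed in both genotypes and covered 1024 bp in the wild type and 487 bp in the knockout. Cells were released from tubules and filtered, with no sort named in the labels, and Stra8-Cre does not act in somatic cells. Peak lists hold no RNA and do not identify cells. INO80 was listed at 6 of 8 germ cell marker genes and at 7 of 13 somatic testis marker genes. Cell composition of the samples was not tested.

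Potassium channels let potassium ions leave or enter cells down their gradient and thereby set the resting membrane potential and the shape of electrical signals. Most are built from pore-forming subunits, and auxiliary subunits modify their opening and traffic. Many members are best known from neurons, heart and kidney, whereas Kcnu1 encodes the alkalinisation-activated channel of sperm. INO80 is the motor subunit of a remodelling complex that moves nucleosomes and acts on those carrying H2A.Z, a histone variant found at many promoters and enhancers.

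The sequences just upstream of annotated starts differed most visibly in their content of CG dinucleotides, so 8 are shown here, chosen after their values were seen. Each is the 250 bases before the start on the gene's strand, from a table of RefSeq promoters on GRCm38.p6 (mm10). CG dinucleotides are in capitals. The first 3 are starts with many CG dinucleotides under a wide INO80 peak.
Kcnd2 (chr6:21215096-21215345, plus strand): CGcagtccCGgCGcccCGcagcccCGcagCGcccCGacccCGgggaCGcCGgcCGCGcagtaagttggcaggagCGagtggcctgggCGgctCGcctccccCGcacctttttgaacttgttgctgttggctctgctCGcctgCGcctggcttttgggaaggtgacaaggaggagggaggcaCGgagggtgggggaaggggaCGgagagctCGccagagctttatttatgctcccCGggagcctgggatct
Kcnh8 (chr17:52602459-52602708, plus strand): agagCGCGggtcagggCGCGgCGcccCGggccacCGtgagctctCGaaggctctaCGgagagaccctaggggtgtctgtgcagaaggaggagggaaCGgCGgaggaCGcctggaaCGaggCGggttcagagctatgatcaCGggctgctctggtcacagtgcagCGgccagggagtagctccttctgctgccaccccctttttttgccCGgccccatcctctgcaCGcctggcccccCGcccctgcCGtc
Kcnk12 (chr17:87797995-87798244, minus strand): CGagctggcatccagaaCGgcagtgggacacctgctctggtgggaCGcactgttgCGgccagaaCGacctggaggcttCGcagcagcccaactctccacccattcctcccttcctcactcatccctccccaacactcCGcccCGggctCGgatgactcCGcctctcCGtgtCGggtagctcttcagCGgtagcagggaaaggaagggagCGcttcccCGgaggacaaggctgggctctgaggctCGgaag

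The next 2 also lie at starts under a wide INO80 peak but hold few CG dinucleotides, and both genes had H2A.Z in the wild type alone.
Kcna5 (chr6:126535556-126535805, minus strand): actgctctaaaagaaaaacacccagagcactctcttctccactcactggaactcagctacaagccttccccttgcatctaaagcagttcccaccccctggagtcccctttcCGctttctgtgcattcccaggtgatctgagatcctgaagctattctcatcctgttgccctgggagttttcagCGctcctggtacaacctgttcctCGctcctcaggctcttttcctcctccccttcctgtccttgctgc
Kcnf1 (chr12:17176889-17177138, minus strand): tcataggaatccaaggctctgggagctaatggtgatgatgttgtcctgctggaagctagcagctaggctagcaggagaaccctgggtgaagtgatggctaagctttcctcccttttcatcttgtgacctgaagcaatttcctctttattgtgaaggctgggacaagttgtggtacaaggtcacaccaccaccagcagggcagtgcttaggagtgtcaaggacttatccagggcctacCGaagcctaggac

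The last 3 lie at starts with no peak of any list within 2 kb.
Kcna10 (chr3:107182893-107183142, plus strand): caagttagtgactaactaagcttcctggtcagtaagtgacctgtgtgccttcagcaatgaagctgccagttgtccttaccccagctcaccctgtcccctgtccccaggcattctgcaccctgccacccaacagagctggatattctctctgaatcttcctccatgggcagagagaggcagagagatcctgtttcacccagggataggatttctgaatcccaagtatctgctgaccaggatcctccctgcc
Kcnk16 (chr14:20269270-20269519, minus strand): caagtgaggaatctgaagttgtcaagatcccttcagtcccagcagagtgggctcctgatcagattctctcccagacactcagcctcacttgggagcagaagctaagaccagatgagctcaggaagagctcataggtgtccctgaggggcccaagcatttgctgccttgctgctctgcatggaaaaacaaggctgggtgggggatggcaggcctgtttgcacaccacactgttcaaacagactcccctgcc
Kcnj15 (chr16:95257308-95257557, plus strand): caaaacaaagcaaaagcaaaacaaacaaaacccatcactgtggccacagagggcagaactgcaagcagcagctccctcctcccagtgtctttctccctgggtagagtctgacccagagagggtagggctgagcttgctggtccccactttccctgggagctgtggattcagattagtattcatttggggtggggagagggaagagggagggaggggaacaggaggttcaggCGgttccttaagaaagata
The 250 bases held 22 CG dinucleotides at Kcnd2, 20 at Kcnh8 and 16 at Kcnk12. They held 3 at Kcna5 and 1 at Kcnf1. At Kcna10 and Kcnk16 there were 0, and at Kcnj15 there was 1.

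The first question was how often and how broadly INO80 lay at these genes. A gene was counted as holding a peak when at least 1 bp of it lay within 2 kb of either annotated end of the gene. INO80 was listed at 62 of 88 potassium channel genes (70.5%, Wilson 95% interval 60.2 to 79.0%, counting error only), where 57.3% of all protein-coding genes held it. The peaks were wide. The widest INO80 peak per gene had a median of 1632 bp (order-statistic 95% interval 1483 to 2288 bp, n = 62 genes), whereas the median over all genes with INO80 was 859 bp. A widest peak of at least 2000 bp was found at 27 of 88 genes (30.7%, 22.0 to 41.0%), beside 7.73% of all genes. Gene length differs between the sets, with medians of 32400 bp and 17170 bp. Among genes over 100 kb, 7 of 20 potassium channel genes and 17.2% of all genes had a peak of at least 2000 bp. Among shorter genes these were 20 of 68 and 6.55%.

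**Figure D1:**
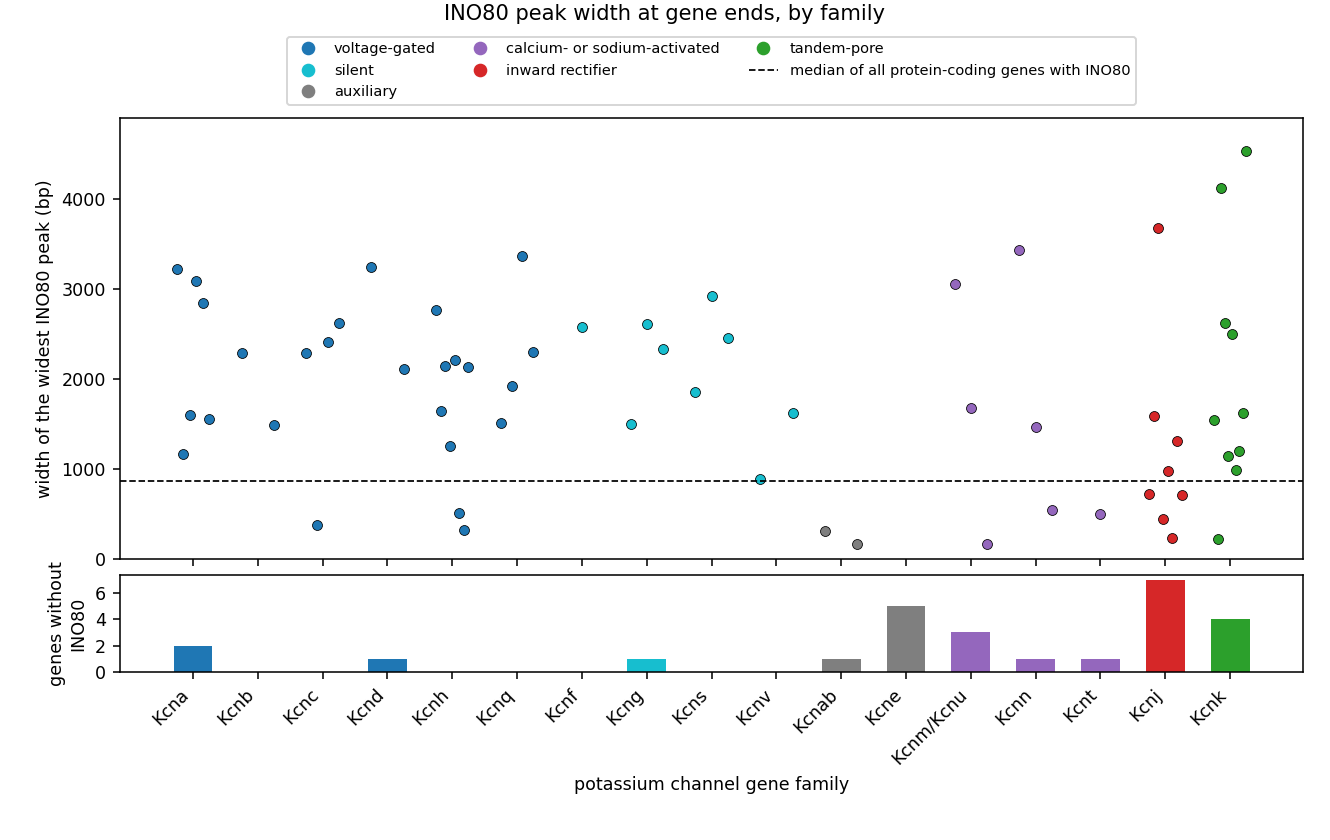
Width in bp of the widest INO80 peak within 2 kb of a gene end (upper panel, 1 point per gene, coloured by role) and number of genes without INO80 there (lower panel), by family. The dashed line is the median of 859 bp over all protein-coding genes with INO80, and most voltage-gated and silent subunit genes lie above it. Both genes with a peak in the auxiliary class (Kcnab and Kcne genes) lie below, and the Kcnmb genes are drawn with the calcium- or sodium-activated channels.

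Voltage-gated pore-forming genes, whose channels open on depolarisation, held INO80 at 26 of 29 genes (89.7%, 73.6 to 96.4%), and at 15 the widest peak was at least 2000 bp. The median width was 2136 bp. Among the widest in this class was the peak at Kcnd2, a gene of the transient A-type current, with 3241 bp (chromosome 6, 21214061 to 21217301). Kcna1, which encodes an axonal channel, had 3216 bp (chromosome 6, 126642081 to 126645296), and Kcna5, of the atrial delayed rectifier, had 3085 bp (chromosome 6, 126533124 to 126536208). Kcnc4, of the Kcnc family of fast channels, had 2622 bp. INO80 was present at an end of all 8 Kcnh genes, with widths from 318 bp at Kcnh7 to 2768 bp at Kcnh1. At Kcnh6, however, the peak of 513 bp lay at the far end, also within 2 kb of an end of Dcaf7. The listed start of Kcnh6 was not covered by INO80.

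The Kcna genes showed that close neighbours in a cluster need not share INO80 at their annotated ends. On chromosome 6, Kcna1, Kcna5 and Kcna6 each held a peak of over 2000 bp, the last with 2846 bp. On chromosome 3, Kcna3, the channel gene of T cells, held 1166 bp, while its neighbours Kcna2 and Kcna10 had no peak of any list at their ends. Kcna10 had none inside the gene either. Kcna2 had an INO80 peak of 1795 bp inside the gene (chromosome 3, 107101007 to 107102801). It covered the only listed start of Kcna2, which lies more than 2 kb from the annotated gene ends. The other voltage-gated gene without INO80 at its ends was the X-linked Kcnd1, which had no peak there or inside.

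Silent subunits do not form channels alone and modify other voltage-gated subunits. Their genes held INO80 at 9 of 10 (interval 59.6 to 98.2%), with a median of 2329 bp. The widths were 2922 bp at Kcns2 (chromosome 15, 34836586 to 34839507), 2610 bp at Kcng2, 2573 bp at Kcnf1 and 2448 bp at Kcns3, and Kcnv2 had 1620 bp. Kcng4 was the member without INO80 at an end by this rule. An INO80 peak of 285 bp lay inside Kcng4.

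The auxiliary class was taken as the Kcnab and Kcne genes. Kcnmb genes, which encode beta subunits of the large-conductance channel, were counted with the calcium- or sodium-activated channels. Of 8 auxiliary subunit genes, INO80 was listed at 2 (interval 7.15 to 59.1%, which holds the 57.3% of all genes). These were Kcnab2 with 311 bp and Kcnab3 with 168 bp, which encode cytoplasmic beta subunits. Both of these peaks also lie within 2 kb of an end of another gene, Nphp4 and Trappc1. All 5 Kcne genes, which encode small single-span subunits, lacked INO80 at their ends. Kcne1, of the slow cardiac current, and Kcne2 had no peak at an end or inside the gene. Kcne3 held INO80 (732 bp) and H2A.Z inside the gene over a listed start. With listed starts alone, INO80 was found at 3 of the 6 auxiliary subunit genes that have one, beside 56.8% of all genes with a listed start.

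Calcium- or sodium-activated channel genes, with the Kcnmb genes counted among them, held INO80 at 7 of 12 (58.3%, 31.9 to 80.7%). This share is near the 57.3% of all genes. The pore-forming gene of the large-conductance channel, Kcnma1, had a peak of 3052 bp (chromosome 14, 24002663 to 24005714), and Kcnn1, of the small-conductance channels, had 3433 bp (chromosome 8, 70862866 to 70866298). The end of Ccdc124 also lies within 2 kb of the latter peak. Of the beta subunit genes of the large-conductance channel, Kcnmb4 had 1680 bp, and Kcnmb1, Kcnmb2 and Kcnmb3 had no peak at their ends. The sodium-activated channel gene Kcnt1 had 502 bp. The sperm channel gene Kcnu1 stood apart from its relative Kcnma1, with an INO80 peak of 162 bp that also lies within 2 kb of an end of Ash2l. Kcnu1 was the 1 member with INO80 and no H2A.Z of either genotype at its ends (1.46% of all genes), although H2A.Z peaks of 760 bp in the wild type and 582 bp in the knockout were listed within the gene.

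Inward rectifiers, which pass current more easily into the cell than out of it, held INO80 at 8 of 15 genes (53.3%, 30.1 to 75.2%), a share near the 57.3% of all genes. Their median width was 845 bp, also near that of all genes. The exception was Kcnj12 with 3677 bp (chromosome 11, 61020583 to 61024259). Kcnj11, the pore of the ATP-sensitive channel, had 1582 bp, Kcnj6, of the G protein-gated channels, had 1303 bp and Kcnj10, of glial cells, had 716 bp. The 7 without any peak at an end were the kidney channel gene Kcnj1, the G protein-gated channel genes Kcnj3 and Kcnj9, and Kcnj13, Kcnj14, Kcnj15 and Kcnj16. Of these, Kcnj3 had an INO80 peak of 2160 bp inside the gene, Kcnj9 one of 1195 bp and Kcnj14 one of 1346 bp.

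Tandem-pore channels carry background potassium currents. Their genes held INO80 at 10 of 14 (71.4%, 45.4 to 88.3%, an interval that holds the 57.3% of all genes) and included the widest peaks of all 88 genes. Kcnk9, of the acid-sensitive channels, had 4525 bp (chromosome 15, 72544997 to 72549521), and Kcnk12 had 4113 bp (chromosome 17, 87795930 to 87800042). Kcnk13 had 2623 bp and Kcnk3, also acid-sensitive, had 2497 bp. Kcnk16, Kcnk18 and Kcnk7 had no peak of any list. The mechanosensitive channel gene Kcnk2 lacked INO80 at its ends, but a peak of 2395 bp inside the gene covered a listed start.

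**Figure D2:**
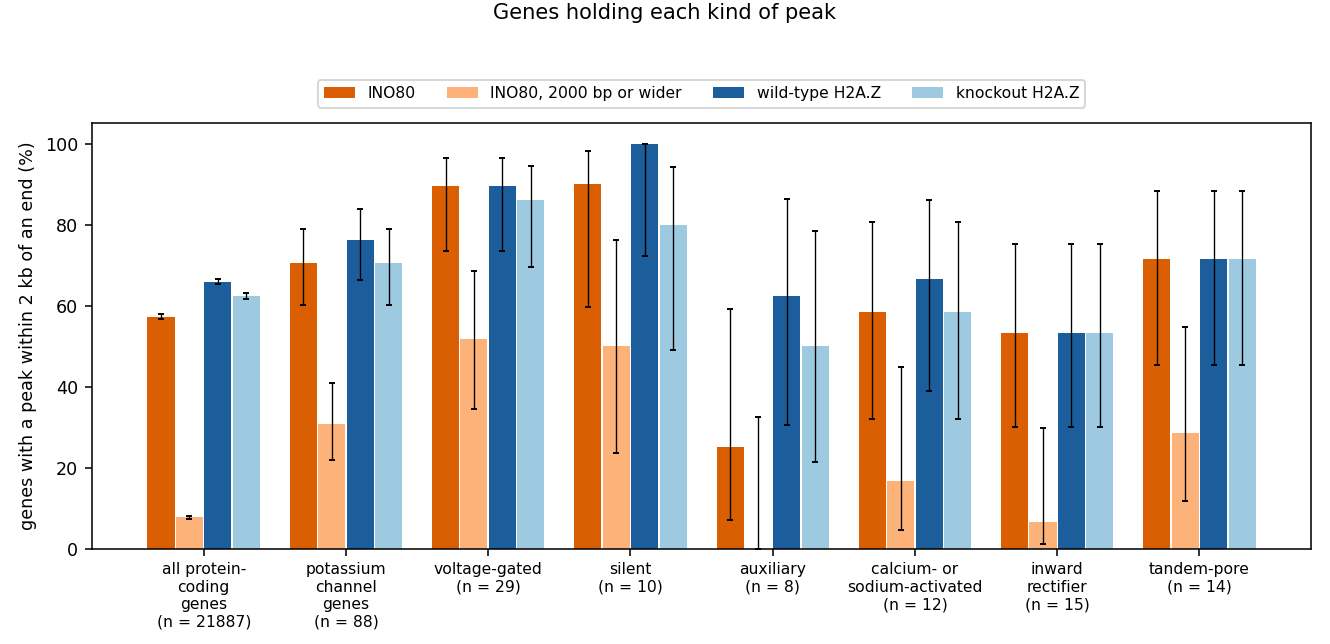
Percent of genes with a peak within 2 kb of either end, for all protein-coding genes, all 88 potassium channel genes and each role, with Wilson 95% intervals that cover counting error only. INO80 was listed at 26 of 29 voltage-gated and 2 of 8 auxiliary subunit genes (Kcnab and Kcne), and at 57.3% of all genes.

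In all, 19 of 88 potassium channel genes had no peak of any list at their ends, beside 32.0% of all genes. Of the 19, 13 had none inside the gene either. No peak was shared by a pair of potassium channel genes, so each gene contributes its own peaks, but the widest INO80 peak of 7 members also lay near an end of another gene. INO80 within 2 kb of both ends was found at 10 of 88 genes (11.4%, beside 8.61% of all genes), among them Kcnk12 with a second peak of 1645 bp at its far end. At the short genes Kcna3 (1968 bp) and Kcna5 (3005 bp) a single peak counted for both ends.

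The position of the widest peak could be read for genes whose strand is given in the promoter table. It lay at the 5′ end of 39 of 41 such potassium channel genes with INO80, and of 9193 of 9975 such protein-coding genes in all. At these 39 the peak reached a median of 306 bp upstream of the annotated 5′ end and 1380 bp into the gene. The medians over 9193 protein-coding genes were 149 and 669 bp. Among genes with a widest peak of at least 2000 bp, the reaches were 605.5 and 2145 bp for 18 potassium channel genes and 699 and 1903 bp for 1151 genes.

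The next question was how INO80 related to H2A.Z at the same genes. Wild-type H2A.Z was listed at 67 of 88 genes (76.1%, 66.3 to 83.8%), beside 65.9% of all genes. Its widest peak had a median of 772 bp, close to the 810 bp of all genes. INO80 was the wider of both at 50 of 60 potassium channel genes that held both (83.3%), and at 51.3% of 12162 such genes in all. At 26 of 60 it was at least 2 times as wide (43.3%), beside 2184 of the 12162. At Kcnk9 the INO80 peak of 4525 bp contrasted with H2A.Z peaks of 545 and 188 bp, and at Kcns2 2922 bp of INO80 contrasted with 320 bp of H2A.Z. H2A.Z was nearly as wide as INO80 at Kcnd3 (2033 and 2106 bp) and wider at Kcna3 (1685 and 1166 bp).

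Wild-type H2A.Z covered a median of 53.7% of the widest INO80 peak of a potassium channel gene, beside 83.6% over all genes with INO80. Wide INO80 peaks in general were covered less. Among genes with a peak of at least 2000 bp, the medians were 33.6% for 27 potassium channel genes and 49.2% for 1692 genes. Under 5 of the 62 peaks there was no wild-type H2A.Z at all. Over all genes with INO80, this held for 643 of 12548 widest peaks. Among the 5 were the peaks at Kcnj8, Kcnk10, Kcnn3 and Kcnu1.

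**Figure D3:**
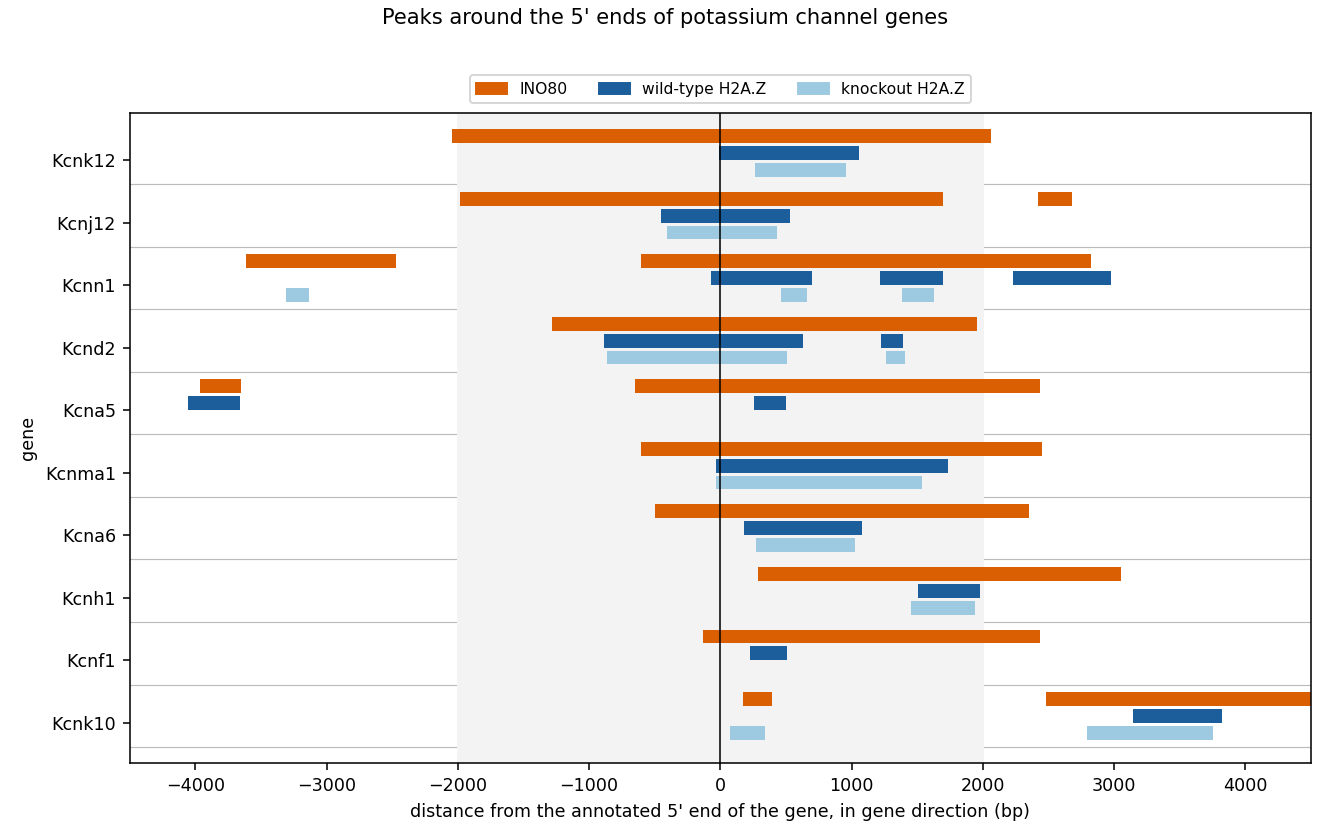
Peaks of INO80, wild-type H2A.Z and knockout H2A.Z around the annotated 5′ end (0 on the horizontal axis, distance in bp in gene direction, the 2 kb window shaded) for the 8 genes of listed strand with the widest INO80 peak there, and for Kcnf1 and Kcnk10, which had H2A.Z in 1 genotype in the window. All peaks in the plotted range are drawn, the wide INO80 peaks reach past H2A.Z on both sides at 7 of the 8 genes and on the upstream side at Kcnn1, where a wild-type H2A.Z peak of 750 bp crosses the other edge, and no knockout H2A.Z peak is listed at Kcna5 or Kcnf1.

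The main comparison asked how H2A.Z at potassium channel genes differed between genotypes. Knockout H2A.Z was listed at 62 of 88 genes, beside 62.4% of all genes. Both genotypes had it at 61 genes (61.7% of all genes). The wild type alone had it at 6 (6.82%, 3.16 to 14.1%, beside 4.16% of all genes), and the knockout alone at 1, Kcnk10 (0.672% of all genes). These shares lie near those of all genes, and the interval of the former holds the share over all genes.

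The 6 genes with H2A.Z in the wild type alone held wild-type peaks of 164 to 554 bp, where the list median was 460 bp. At Kcna5 a wild-type peak of 239 bp (chromosome 6, 126535058 to 126535296) lay within the INO80 peak of 3085 bp. At Kcnf1 a wild-type peak of 282 bp (chromosome 12, 17176382 to 17176663) lay within 2573 bp of INO80. Kcnn2, of the small-conductance channels, had wild-type peaks of 196 and 184 bp within an INO80 peak of 1462 bp (chromosome 18, 45268149 to 45269610). Each of these 3 genes had no knockout peak within 2 kb of its ends. Inside Kcnn2, however, a long H2A.Z peak was listed in both genotypes, of 2777 bp in the wild type and 2392 bp in the knockout, together with an INO80 peak of 3153 bp. The other three, Kcne4 (173 bp), Kcng4 (554 bp, of which 120 bp were in the window) and Kcnk2 (164 bp, of which 85 bp were in the window), had no INO80 at an end, and their wild-type peak lay at the far end of the gene. Kcng4 and Kcnk2 had H2A.Z of both genotypes inside the gene. When only the widest wild-type peaks were kept, as many as the knockout list holds, the genes with H2A.Z in the wild type alone were 2, Kcnf1 and Kcng4. At Kcnk10, a mechanosensitive channel gene, the knockout peak of 264 bp (chromosome 12, 98577875 to 98578138) overlapped an INO80 peak of 217 bp. Inside Kcnk10, H2A.Z was listed in both genotypes, with 685 bp in the wild type and 960 bp in the knockout, under an INO80 peak of 2078 bp. With 5 kb windows no gene had H2A.Z in the knockout alone.

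Among the 61 genes with H2A.Z in both genotypes, the length covered by H2A.Z within the windows was shorter in the knockout at 44 (74.2% of all 13507 genes with both). The median log2 ratio of knockout over wild-type covered length was -0.22 (order-statistic 95% interval -0.41 to -0.09). This interval covers spread over genes, not error between libraries, and does not test the genotypes. Over all genes the median was -0.19. Potassium channel genes as a list therefore lay near the genome-wide difference between the lists. Covered length was at least 2-fold lower in the knockout at 9 of 61 genes (14.8%, beside 11.1% of all genes) and at least 2-fold higher at 0 (0.881% of all genes).

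The largest of these differences lay at Kcnk9, where wild-type H2A.Z covered 733 bp and knockout H2A.Z 208 bp (28.4% of the wild type). Only 1 of its wild-type peaks had a knockout counterpart. With 1 kb windows Kcnk9 had H2A.Z in the wild type alone. Kcnn1 had 1415 bp in the wild type and 445 bp in the knockout, and both wild-type peaks at its 5′ end had a narrower knockout peak within their bounds. Kcnk3 had 725 and 299 bp, and Kcng2 had 1312 and 555 bp. With 5 kb windows the log2 ratio of Kcnk3 was -0.52, which is under 2-fold, beside -1.28 with 2 kb windows. At Kcng2 the wild-type peak under the 2610 bp INO80 peak (chromosome 18, 80361885 to 80364494) had no knockout peak, whereas the peak at the opposite end remained listed. Others were Kcns2 (320 and 147 bp, the latter at the smallest width listed), Kcnc1 (2065 and 965 bp) and Kcnmb4 (1949 and 913 bp). Of the 9 genes, 7 were also at least 2-fold lower with 1 kb windows, 7 with 5 kb windows and 4 with the widest 50% of each list. At Kcnc1 a single wild-type peak faced 2 knockout peaks, the wider of 535 bp.

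At the other end of the range, knockout H2A.Z covered more than wild-type H2A.Z at Kcnk13 (591 and 365 bp), Kcnk15 (858 and 613 bp), Kcna4 (622 and 480 bp), Kcnj6 (566 and 487 bp) and Kcns3 (1312 and 1155 bp). These log2 ratios ran from 0.18 to 0.70. The direction at Kcnk15 was opposite, with a log2 ratio of -0.28, when only listed starts or the widest 50% of each list were used. At Kcna4 it was opposite with 5 kb windows, with a log2 ratio of -0.16. At Kcnk13 the log2 ratio was 3.89 when the wild-type list was cut to the length of the knockout list. The cut removed the wild-type peak of 169 bp at the start of Kcnk13. The wild-type coverage left was the part of a 260 bp far-end peak that lay in the window. The knockout peak of 591 bp lay at the start. The long H2A.Z domains of Kcnc4 (1926 bp wild-type and 2137 bp knockout coverage), Kcnq5 (1763 and 1756 bp) and Kcng3 (1803 and 1751 bp) differed by little between the lists. Kcnma1 had 1767 and 1576 bp.

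**Figure D4:**
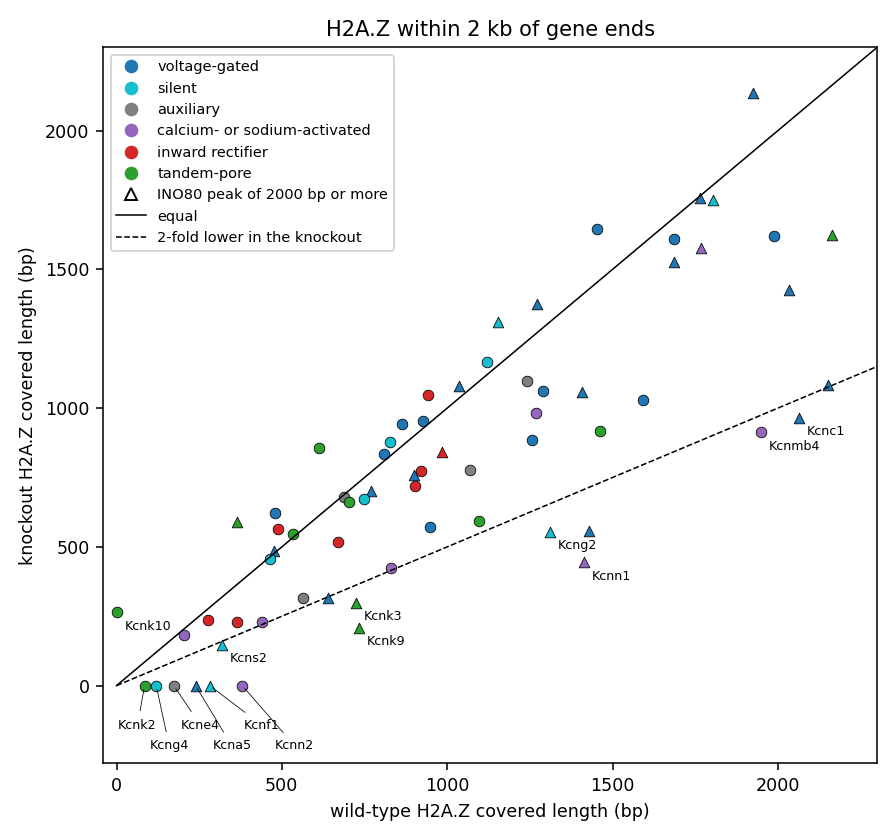
Length in bp covered by H2A.Z within 2 kb of gene ends in the wild type (horizontal) and knockout (vertical), 1 point per potassium channel gene with H2A.Z in either genotype, coloured by role, with triangles for genes with an INO80 peak of 2000 bp or more, and with names beside some of the genes with the largest differences. Most points lie below the solid line of equality, the 9 genes at least 2-fold lower lie on or below the dashed line, and the 6 genes at 0 on the vertical axis have H2A.Z in the wild type alone.

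The genes with covered length at least 2-fold lower were unevenly spread over INO80 width. They were 8 of the 25 with an INO80 peak of at least 2000 bp and H2A.Z in both genotypes, and 1 of the 32 with a narrower INO80 peak, Kcnmb4. Over all genes the shares were 9.14% of 1576 and 10.3% of 10182. This split was noticed in these data and was not tested. By role, covered length was lower in the knockout at 7 of 7 calcium- or sodium-activated channel genes (Kcnmb4 among them), with a median log2 ratio of -0.93, beside 74.2% and -0.19 over all genes. It was lower at 16 of 25 voltage-gated genes, with a median of -0.14, and at 6 of 8 inward rectifier genes, with a median of -0.24. It was lower at 6 of 9 tandem-pore genes (-0.41), 5 of 8 silent subunit genes (-0.03) and 4 of 4 auxiliary subunit genes (-0.32). The difference between roles was not tested.

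INO80 presence differed between the H2A.Z classes. Of the 61 genes where both genotypes had H2A.Z, 57 held INO80 (93.4%). It was listed at 3 of 6 wild-type-only genes and at 1 of 20 genes lacking H2A.Z. Over all genes these shares were 87.1%, 44.3% and 4.36%. Of the 26 genes without INO80 at an end, 7 had wild-type H2A.Z at an end (26.9%), beside 24.2% of all genes without INO80 there. The 7 were Kcnab1, Kcne1l, Kcnn4 and Kcnt2, with H2A.Z in both genotypes, and Kcne4, Kcng4 and Kcnk2 of the wild-type-only class. At Kcng4 the wild-type H2A.Z peak did overlap an INO80 peak, the one of 285 bp inside the gene, which lay beyond the 2 kb window. At Kcnt2, a sodium-activated channel gene, wild-type H2A.Z covered 1270 bp and knockout H2A.Z 981 bp.

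Transcription starts can also lie inside the annotated gene, so all starts listed by RefSeq were checked. At least 1 listed start was covered by INO80 at 37 of 64 potassium channel genes (39.6% of all genes with a listed start). It was covered by wild-type H2A.Z at 33 (46.1% of all) and by knockout H2A.Z at 29 (38.1% of all).

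Sequence around the start was examined in the 64 potassium channel genes found in the promoter table, using the most upstream listed start and the 250 bases before and 50 after it. The 33 starts under an INO80 peak held a median of 21 CG dinucleotides (range 3 to 49), and the 31 starts without one held 6 (range 0 to 25). Over all genes the medians were 25 and 5, so the contrast was present genome-wide. The ratio of observed to expected CG was at least 0.6 at 19 of 33 (57.6%) and 2 of 31 (6.45%), beside 83.1% and 27.8% over all genes. Most CG dinucleotides were found at Kcng3 (49), under an INO80 peak of 2329 bp, and at Kcnmb4 (48). Kcnf1 (3), Kcna5 (4) and Kcna7 (4) lay under INO80 with few. Among genes with INO80 at an end, a ratio of at least 0.6 was found at 48.8% of 41 potassium channel genes and 75.2% of 9975 genes. Starts of potassium channel genes with INO80 peaks of at least 2000 bp and of narrower ones held medians of 17 and 21 CG dinucleotides. Over all genes these medians were 23 and 22.

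**Figure D5:**
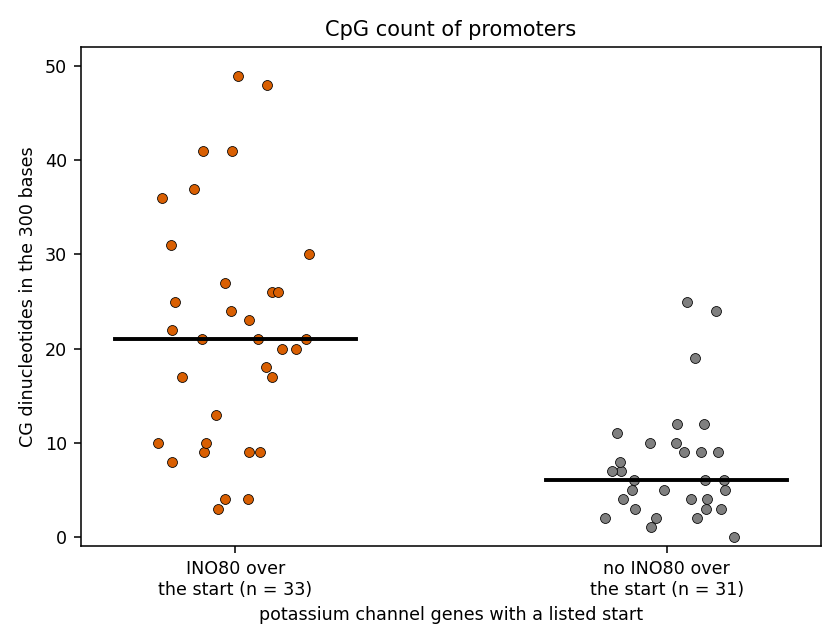
Number of CG dinucleotides in 300 bases around the most upstream listed start of 64 potassium channel genes, split by whether an INO80 peak covers that start, with 1 point per gene and the median as a bar. Medians were 21 and 6, and the ranges overlap.

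The motif GCCATNTT, a core of the binding site of YY1, which associates with INO80, was searched on both strands. It was found in 1 of 64 windows, at Kcnma1, and in 6.65% of all promoter windows of that length. The TATA motif TATAAA on the gene strand was found at 2 of 64, Kcnj13 and Kcnj9, which both lacked INO80 at their ends, and in 8.99% of all windows.

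Genes that work with potassium channels or resemble them were taken from a list of 13. INO80 was listed at 9 (69.2%, 42.4 to 87.3%, an interval that holds the share of all genes). Beside 7.73% of all genes, 3 of the 13 (23.1%, 8.18 to 50.3%) had a peak of at least 2000 bp. These were Lrrc26, a partner of the large-conductance channel, with 3864 bp, and the pacemaker channel genes Hcn4 with 3299 bp and Hcn2 with 2946 bp. Lrrc52, which encodes the partner of Kcnu1 in sperm, had no INO80 and a wild-type H2A.Z peak of 322 bp with no knockout peak. Abcc8, the regulatory subunit that pairs with Kcnj11, had 883 bp of H2A.Z in the wild type and 442 bp in the knockout, and Kcnj11 had 671 and 517 bp. Among other voltage-gated channels, INO80 was listed at 2 of 10 sodium channel alpha genes (5.67 to 51.0%) and 7 of 10 calcium channel alpha-1 genes (39.7 to 89.2%). The share over all genes was 57.3%. No peak in these 2 families reached 2000 bp. With 10 genes in each, the interval runs from 0 to 27.8% and holds the 7.73% of all genes.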

How the data were processed

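The authors deposited 3 peak lists with 3 columns (chromosome, start, end) and no score. Per the submitters' processing notes, Bowtie2, SAMtools, deepTools, MACS2 and mm10 were used. Tool roles and versions, peak threshold, control and any pooling of libraries were not given in the sources used here. Per the labels' protocols, chromatin was cut with micrococcal nuclease.

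Gene positions and strand came from RefSeq tables of GRCm38.p6. Of 88 members, 64 had a listed start. The members and lists were chosen with earlier results of these data known. Covered length is the summed length of peaks inside the 2 kb windows, and its ratio was taken without a pseudocount for genes with both genotypes. No model or test was fitted, because each group is represented by 1 list. Results are counts and medians with 95% intervals. Wilson intervals of shares cover counting error only. Order-statistic intervals of medians cover spread over genes only. Neither kind covers error between libraries, and neighbouring genes are not independent.

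Genes named by rule are the 10 widest INO80 peaks, the widest of each family, genes with H2A.Z in 1 genotype, INO80 without H2A.Z, the 5 lowest and 5 highest covered-length ratios, and up to 3 genes without peaks per family, Kcnu1, Ino80 and the 3 partner genes with the widest INO80 peaks. Values of some genes that the rule picks are not reported here. Other names were chosen after their values were seen. The tools were pandas 2.3.3, numpy 2.4.6 and matplotlib 3.10.9 under Python 3.11.15. Gene calls equalled those of bedtools 2.31.1 for 3 of 3 lists, and 5 of 5 simulated sets were recovered. The 8 alternatives tried are given in the closing section.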

Additional observations from a re-analysis of the deposited data

How the results depend on the processing

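No paired analysis was possible because each group is represented by 1 list without values per library, and for the same reason no replicate could be left out. The 8 alternatives were 1 kb and 5 kb windows, listed starts alone (64 genes), genes free of close neighbours (71 genes with no end of another gene within 2 kb), the widest 50% of each list, the wild-type list cut to the length of the knockout list, at least 50% of the peak in the window, and counting partner peaks outside the window. The counts of genes with INO80, with H2A.Z of each genotype and with H2A.Z in both stayed within 1.5 times, and the median INO80 width and median log2 ratio stayed within their intervals, under all 8. Genes with H2A.Z in the wild type alone were 3 of 64 with listed starts (4.69%, beside 3.80% of all genes) and 2 with the cut list. Of the original 6, only Kcng4 was shared with the widest 50% of each list, and 3 were shared with 1 kb windows. Genes with it in the knockout alone were 0 with 5 kb windows, 0 with listed starts and 2 with the cut list. Genes with INO80 and no H2A.Z were 2 with 1 kb windows, 0 with listed starts, 0 without close neighbours, 6 with the widest 50% and 3 with the cut list. Genes with covered length at least 2-fold lower in the knockout were 4 with listed starts and 5 with the widest 50%. Those at least 2-fold higher were 1 with the cut list. Shares over all genes were not computed for the cut list. Under the other alternatives they were not computed for knockout-alone, INO80-without-H2A.Z or 2-fold counts. Settings for peaks of at least 2000 bp and for roles were chosen after seeing the data. With a limit of 3000 bp there were 9 such genes, and the share over all genes at that limit was not computed. With the limit of 2000 bp the shares were 29.55% with 1 kb windows (7.29% of all genes) and 31.8% with 5 kb windows (8.53%). With listed starts they were 31.25% and 6.98%. Voltage-gated and silent subunit genes with INO80 were 21 with listed starts, which only 20 voltage-gated and 5 silent subunit genes have. Auxiliary subunit genes with INO80 were 0 without close neighbours, 0 with the widest 50% and 3 of 6 with listed starts. Listed starts and close neighbours leave fewer genes, and the widest 50% and the cut list leave fewer peaks. Of 153 covered-length ratios of 22 named genes under the alternatives, 6 moved by more than 1.5 times. No ratio of 2-fold or more changed sign. Smaller ones did at, among others, Kcnk15 (log2 ratio 0.49, but -0.28 with listed starts and with the widest 50%) and Kcna4 (0.37, but -0.16 with 5 kb windows). The sign also differed in 1 setting each at Kcna1, Kcnc4, Kcnd2 and Kcnma1, whose log2 ratios lay between -0.17 and 0.15. The unknown depth limits all absences to absence from a list.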
